A study of Mus musculus with 4 samples.

Results

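Genes that make amino acids, move single carbons between them and load them onto tRNA were followed in mouse bone marrow cells cultured towards osteoclasts, the multinucleated cells that resorb bone. The members were 41 genes named by symbol, and every probe set that the platform annotation gives to one of them was taken. Of these, 39 genes were found, with 86 probe sets, among 18193 named genes in all. The other 2, Pycr1 and Dars, were not analysed here. The cells came from bone marrow of female C57Bl/6J mice aged 12 weeks, with no genetic change named in the labels. RNA of 4 days was hybridised to 1 Affymetrix array each. Day 1 was freshly extracted marrow, day 4 followed 3 days in a-MEM with 10% serum and 10 nM vitamin D3, and days 5 and 7 had 20 ng/ml M-CSF, a macrophage growth factor, and 40 ng/ml RANKL, the cytokine of osteoclast formation, beside vitamin D3. No array without the cytokines on days 5 and 7 was analysed here, and effects of the cytokines and of time in culture cannot be told apart. The labels do not say whether mice were pooled or whether 1 culture gave all samples.

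All 4 samples carry the cell type label of primary osteoclast. Of 10 osteoclast marker genes, 6 had a day 1 signal over the floor of 32.4 units, where Dcstamp, Ocstamp, Oscar and Calcr were below it, and all 10 did on days 5 and 7. Those 4 markers go against the label on day 1, and that sample is called fresh marrow here. The floor is the median of all signals, and lower signals were set to it before differences were taken. The median signal over probe sets was 38.3, 34.3, 32.3 and 26.2 on days 1, 4, 5 and 7. With 1 array a day nothing could be tested, and a difference was counted when it reached 2-fold. As measures of technical precision, 14 hybridisation control probe sets had an SD of log2 differences between 0.067 and 0.19 over the 5 comparisons, and probe sets of the same gene had a pooled SD between 0.26 and 0.53. Because these are bulk samples, fewer cells of a type and less RNA per cell cannot be told apart.

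Cells that run short of amino acids, or whose endoplasmic reticulum is under stress, make more of the transcription factor ATF4, mainly by translating its messenger RNA more. ATF4 binds DNA together with C/EBP proteins and switches on genes of asparagine, serine and one-carbon metabolism, amino acid transporters and many of the cytosolic tRNA synthetases, along with the stress genes Ddit3, Trib3, Chac1 and Sesn2. Serine made from glucose feeds the folate cycle, whose one-carbon units go into purines and thymidine. In osteoclast precursors ATF4 is known as a factor that RANKL signalling uses, and serine is known to be needed for osteoclasts to form in culture.

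The 39 genes did not follow 1 course, and members of the same role differed in several cases. The stress genes Ddit3, Trib3 and Chac1 were lower on all 3 later days than in fresh marrow. By their brightest probe sets, all 16 cytosolic tRNA synthetases and all 5 one-carbon enzymes were higher on day 7 than in fresh marrow. Most of these differences were less than 2-fold, and 50.3% of all genes were higher by any amount. Some other probe sets of Mthfd2, Shmt1, Shmt2, Wars and Qars were lower on day 7. Of the 39 genes, 6 had their highest signal on day 1 and 2 on day 4, by their brightest probe sets. Day 5 was highest for 24 and day 7 for 7. The 24 include Cth and Cbs, whose brightest probe sets passed the floor on day 5 alone. Over the 12438 genes above the floor on at least 1 day, 29.7% were highest on day 5 and 34.9% on day 1. The count for day 5 depends on scaling, being 21 after quantile normalization and 19 after scaling to equal medians, where 22.1% and 19.4% of all genes were highest on that day. For 22 of the 39 genes the highest signal, after the floor, was less than 2 times the lowest, as it was for 62.6% of all genes. The plot of signals by role shows each gene on its own line.

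**Figure D1:**
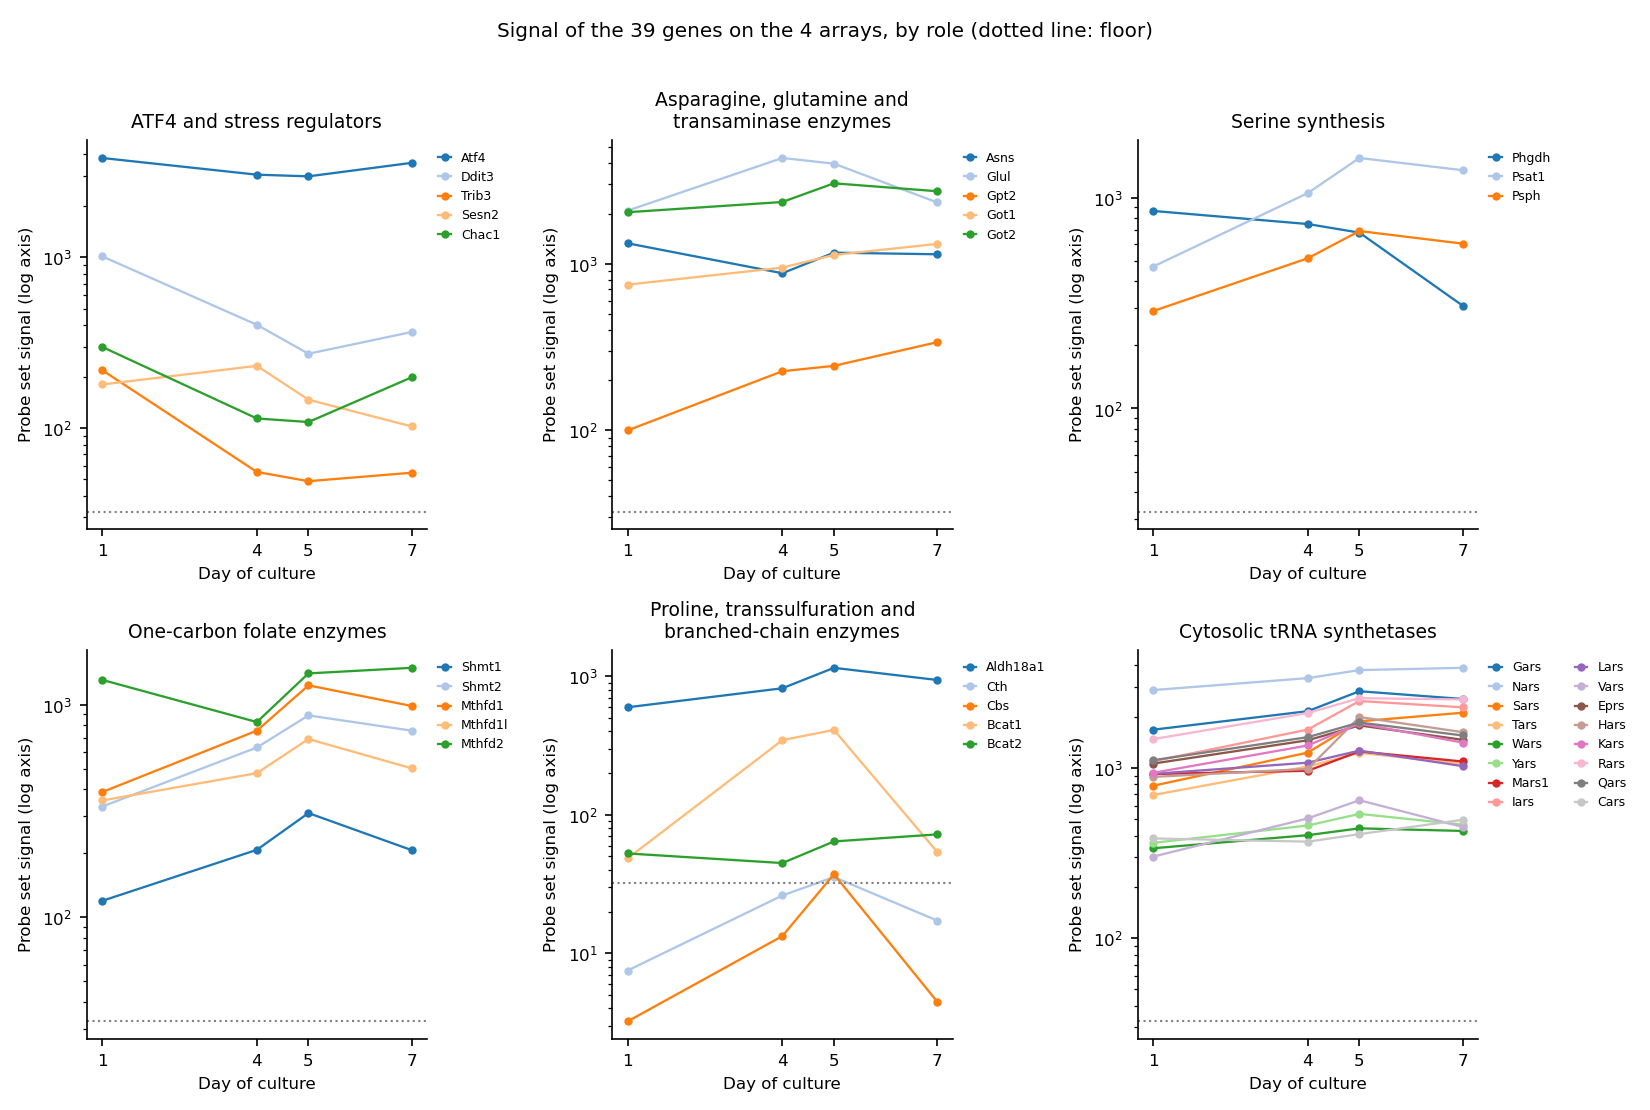
Probe set signal (log axis) of the 39 genes against day of culture, 1 line a gene and 1 array a day, in 6 panels by role, with the floor of 32.4 as a dotted line. Ddit3, Trib3 and Chac1 start high on day 1, 13 of 16 tRNA synthetases and 4 of 5 one-carbon enzymes are highest on day 5, and Bcat1 is high on days 4 and 5 only. Heights compare days within a gene, not genes.

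A DNA element to which ATF4 and C/EBP proteins bind together was looked for in RefSeq promoters of the GRCm38.p6 assembly, from 250 bases before to 50 bases after each gene start. The letters searched were TGATGNAA on both strands, N being any base. Of the 39 genes 31 were matched, with 34 promoters, and 8 of them held a match: Trib3, Chac1, Asns, Got1, Gars, Tars, Yars and Iars. Over all 32851 promoters the share was 3.97%, and over all 27025 genes it was 4.51%. The stricter form TGATGCAA, which is contained in the first, was found in 5 of the 31 genes, Chac1, Got1, Tars, Yars and Iars, and in 1.03% of all genes. CACGTG, the E-box, was found in 4 of them, Aldh18a1, Cbs, Tars and Iars, and in 8.09% of all genes. The members include genes known as ATF4 targets, so these shares are a description and not independent evidence. A match is not a measured binding site. A stretch from 6 of the 8 promoters is shown because the 6 genes went different ways, with the matching letters in capitals as they read on the strand of the gene.
Trib3 (chr2:152344039-152344086, minus strand): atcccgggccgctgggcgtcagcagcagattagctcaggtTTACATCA
Chac1 (chr2:119351009-119351096, plus strand): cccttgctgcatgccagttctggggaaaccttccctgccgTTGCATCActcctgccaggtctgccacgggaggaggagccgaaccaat
Asns (chr6:7693210-7693272, minus strand): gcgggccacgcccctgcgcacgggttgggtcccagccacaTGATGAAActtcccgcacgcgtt
Got1 (chr19:43524660-43524747, minus strand): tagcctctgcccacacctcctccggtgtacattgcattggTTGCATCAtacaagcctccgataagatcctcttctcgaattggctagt
Tars (chr15:11399659-11399713, minus strand): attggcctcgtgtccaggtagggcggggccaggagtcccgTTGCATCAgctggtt
Iars (chr13:49682097-49682144, plus strand): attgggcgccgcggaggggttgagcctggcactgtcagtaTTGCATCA
On day 4 over day 1, log2 differences were -1.98 for Trib3, -1.39 for Chac1 and -0.60 for Asns, and 0.34 for Got1, 0.56 for Tars and 0.62 for Iars. The Chac1, Got1, Tars and Iars stretches hold the same 8 letters, and the signals of these genes did not follow 1 course.

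Atf4 itself varied little. Its signal was 3809, 3042, 2974 and 3567 on days 1, 4, 5 and 7, a range of 1.28-fold, and a second probe set above the floor ranged over 1.26-fold. That second probe set was highest on day 5, at 1487, where the brightest one was lowest. The array measures messenger RNA only, not translation.

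Ddit3, which encodes the stress transcription factor CHOP, had signals of 1012, 402, 272 and 365 on the 4 days. It was 2.52-fold lower on day 4 than on day 1, and lowest on day 5. A second probe set of Ddit3 was 1.48-fold lower on day 4 than on day 1 and was below the floor on day 7 (31.9), where the brightest one was above its day 5 signal. Trib3, a pseudokinase gene that ATF4 induces and whose product restrains ATF4 and CHOP, had signals of 218, 55.3, 48.8 and 54.7. It was 3.95-fold lower on day 4 than on day 1, and a second probe set gave 3.94-fold. Chac1, whose product breaks down glutathione, had signals of 298, 114, 108 and 198, which is 2.62-fold lower on day 4 than on day 1 and 1.83-fold higher on day 7 than on day 5. After quantile normalization or median scaling that last difference passed 2-fold. Sesn2, the gene of a leucine sensor that restrains mTORC1, had signals of 180, 231, 147 and 102, and was 2.26-fold lower on day 7 than on day 4. Its second probe set gave 2.21-fold over the same days but differed in direction on day 4 over day 1, with log2 differences of -0.42 against 0.36.

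The 3 stress genes that were lower on day 4 than on day 1 shared that step with genes of other cell types. Over all genes, 8.65% were lower by 2-fold or more at that step. Of 10 erythroid markers listed 8 were measured and 7 were above the floor, all lower on day 4 by 2-fold or more, with a summed signal of 328 on day 4 against 26782 on day 1, and Alas2, Slc4a1, Epb42, Klf1, Trim10 and Ermap were below the floor on day 4. The probe set of Hba-a1, an erythroid marker too, was below the floor on all days. Of 10 neutrophil markers 6 were lower by 2-fold or more, with a summed signal of 67676 on day 4 against 111760 on day 1. Of 9 B cell markers measured 7 were lower by 2-fold or more, with a summed signal of 2980 on day 4 against 8831 on day 1. The part of these cells in the lower stress gene signals was not tested.

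Among enzymes of the asparagine, glutamine and transaminase group, Asns, the asparagine synthetase gene and an ATF4 target, had signals of 1326, 876, 1165 and 1139. The log2 difference was -0.60 for day 4 over day 1 and 0.41 for the step after it, and the second probe set gave -0.42 and 0.53. Glul, which encodes glutamine synthetase, had signals of 2083, 4316, 3990 and 2336, high on days 4 and 5 and about equal on days 1 and 7. Day 4 was 2.07-fold above day 1 by this probe set and 1.24-fold by the other. Gpt2, the gene of the mitochondrial alanine transaminase, had signals of 99.7, 226, 243 and 338, and was 2.27-fold higher on day 4 than on day 1 and 3.39-fold higher on day 7 than on day 1. Its 3 other probe sets were between 2.04-fold and 2.22-fold higher on day 7 than on day 1, the largest of them a lower bound. Got1, the cytosolic aspartate transaminase gene, had signals of 749, 948, 1129 and 1316, and its mitochondrial counterpart Got2 had 2038, 2348, 3041 and 2725. Neither reached 2-fold at any comparison.

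The serine synthesis genes did not move together. Phgdh encodes the first enzyme of the pathway, and its signals were 864, 749, 682 and 307. It was 2.22-fold lower on day 7 than on day 5, and its 3 other probe sets were between 1.59-fold and 2.41-fold lower over that step. On day 4 over day 1 they disagreed, with log2 differences between -0.56 and 0.62 over all 4 probe sets. All of them are of the type that can bind similar transcripts. Psat1, the gene of the aminotransferase that follows, had signals of 470, 1051, 1541 and 1349. It was 2.23-fold higher on day 4 than on day 1 and 5.59-fold higher by a second probe set, and both stayed high on day 7. Psph, the gene of the phosphatase that releases serine, had signals of 290, 516, 694 and 605, which is 2.09-fold higher on day 7 than on day 1. By day 7 Psat1 and Psph were thus above their fresh marrow signals and Phgdh was below its own, 2.81-fold by the brightest probe set, lower by 2 of the others and higher by 1, with a log2 difference of 0.23.

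The one-carbon enzymes were all higher on day 5 than on day 4, each by a log2 difference between 0.50 and 0.76 by the brightest probe sets. Their other probe sets were higher too, from 0.18 for 1 of Shmt1 to 1.23 for 1 of Mthfd1. Mthfd1, the cytosolic enzyme gene that makes the folates used for purines, had signals of 388, 754, 1231 and 985, and was 1.63-fold higher on day 5 than on day 4. Its 2 other probe sets gave 1.62-fold and 2.34-fold. Mthfd2, its mitochondrial relative and an ATF4 target, had signals of 1307, 828, 1402 and 1489. By the brightest probe sets it was the member of this group that was lower on day 4 than on day 1, by 1.58-fold. It was 1.69-fold higher on day 5 than on day 4 and highest on day 7. Its other probe set was highest on day 1, at 864 against 843 on day 7. Shmt2, the mitochondrial serine hydroxymethyltransferase gene, had signals of 332, 629, 890 and 754, and cytosolic Shmt1 had 120, 208, 309 and 207. Shmt2 was 2.27-fold higher on day 7 than on day 1 by its brightest probe set, while the others gave log2 differences of 0.59, at least 1.22 and -0.15. Mthfd1l, the gene of the mitochondrial enzyme that releases formate, had 354, 476, 689 and 502. In these last 3 genes day 5 was highest and day 1 lowest by the brightest probe sets. Another Shmt1 probe set was lowest on day 7, with signals of 154, 135, 180 and 123, and the rest were lowest on day 1. Among the other Shmt2 probe sets, 1 was lowest on day 4 and 1 was highest on day 7.

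Other genes of the folate cycle and of one-carbon use were also mostly higher at this step. Of 20 listed genes of the folate cycle and of purine and methyl group synthesis, 16 were measured and 14 were above the floor on day 5 or day 4. Of those 14, 13 were higher on day 5 by any amount, against 55.7% of all genes, 6 by at least 1.5-fold, against 9.7%, and none by 2-fold. The largest differences were those of Gcsh, a subunit gene of the glycine cleavage system, 1.93-fold, of the purine synthesis gene Pfas, with a log2 difference of 0.80, and of Atic, which completes the purine ring, 1.71-fold. Tyms was below the floor on days 4, 5 and 7. The S phase markers were higher at this step too, 5 of 9 above the floor by at least 2-fold, against 2.02% of all genes, and none lower. Their summed signal, over all 10, was 26929 on day 5 against 15460 on day 4. Their part in the one-carbon signals was not tested.

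Of the remaining enzymes, Aldh18a1, the gene of the enzyme that starts proline synthesis, had signals of 597, 818, 1149 and 939. Its other probe sets were highest on day 5 or on day 7. Bcat1, the cytosolic branched-chain transaminase gene, had the widest range of the 39 genes, 8.46-fold, with signals of 48.5, 345, 410 and 54.0. It was 7.13-fold higher on day 4 than on day 1 and 7.58-fold lower on day 7 than on day 5. Its day 1 and day 7 signals, on which these folds rest, were near the floor. A second probe set was higher by at least 2.29-fold and then lower by at least 3.03-fold over the same steps, and another stayed below the floor. Bcat2, the mitochondrial form, had signals of 52.6, 44.8, 64.2 and 72.2, near the floor. Cth and Cbs, the genes of the transsulfuration pathway to cysteine, passed the floor on day 5 alone by their brightest probe sets, at 35.5 for Cth and 37.2 for Cbs, and no fold is given for them.

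Bcat1 and Glul, both high on days 4 and 5, shared those steps with genes of bone marrow stroma. All 10 stromal markers were higher by 2-fold or more on day 4 than on day 1, against 10% of all genes. On day 7 over day 5, 6 of 10 were lower by 2-fold or more, against 5.84%. On day 7 over day 1, 8 of 10 were still at least 2-fold higher, against 12.7%. Bcat1 and Glul were each 1.12-fold higher there by their brightest probe sets, and the Bcat1 signals of both days were near the floor. The summed signal of the stromal markers was 1867, 28362, 37031 and 25142 on the 4 days. Osteoclast markers (7 of 9) and macrophage markers (5 of 10) were also higher by 2-fold or more on day 4 than on day 1. Which cells carried the Bcat1 or Glul transcripts was not measured, and the part of stromal cells was not tested.

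The cytosolic tRNA synthetases, which join each amino acid to its tRNA, differed in small steps, mostly in 1 direction within a step. Counts of them are by the brightest probe set of each gene. On day 5 over day 4 all 16 were higher by any amount, against 55.7% of all genes, with a median log2 difference of 0.29 against 0.06 for all genes. After quantile normalization and after median scaling all 16 were higher as well. The differences were small, between 0.13 and 1.01 on the log2 scale, and many were no larger than the pooled SD of 0.29 between probe sets of a gene. Other probe sets had differences of -0.42, -0.29 and 0.22 for Qars and of -0.002, 0.13 and 0.87 for Wars. On day 4 over day 1, 15 of 16 were higher by any amount, against 54% of all genes, with a median of 0.41. Cars was the exception at -0.06. Other probe sets had -0.30, -0.23 and 0.41 for Qars and -0.18, -0.12 and 0.07 for Wars. On day 7 over day 1 all 16 were higher by any amount, against 50.3% of all genes, with a median of 0.53 against 0.01 for all genes.

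Sars, the seryl-tRNA synthetase gene, had signals of 785, 1230, 1877 and 2108 on days 1, 4, 5 and 7. It was 2.68-fold higher on day 7 than on day 1, the largest difference in the group, and a second probe set gave 2.55-fold. Iars, for isoleucine, had signals of 1093, 1678, 2469 and 2268, which is 2.07-fold higher on day 7 than on day 1, where the other probe set gave 3.71-fold. Hars, for histidine, had signals of 885, 987, 1988 and 1621. It was 2.01-fold higher on day 5 than on day 4 by its brightest probe set and 1.43-fold by the other, so its place past 2-fold rests on 1 probe set.

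Gars and Kars, whose products serve both the cytosol and the mitochondria, had signals of 1675, 2153, 2819 and 2538 for Gars and of 935, 1354, 1823 and 1408 for Kars. Vars, for valine, had signals of 301, 505, 646 and 450, the largest log2 difference of the group on day 4 over day 1, at 0.75, and the most negative on day 7 over day 5, at -0.52. Nars, Sars and Cars were the 3 that were highest on day 7. Wars and Qars each had probe sets that went different ways. On day 7 over day 1 the 3 other Qars probe sets had log2 differences between -0.84 and 0.51 against 0.48 for the brightest one. The 3 other Wars probe sets had differences between -0.40 and -0.13 against 0.34. The ranges of Lars, Mars1, Yars, Tars, Eprs and Rars, highest over lowest signal, lay between 1.36-fold and 1.77-fold.

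Genes related to these synthetases were read beside them. The other cytosolic synthetase and scaffold genes, 6 measured of 8 listed, were all higher by any amount on day 5 than on day 4, led by Aimp2 at 1.95-fold and Eef1e1 at 1.70-fold, both parts of the scaffold that holds synthetases together, with a median of 0.53. The mitochondrial synthetases are encoded by separate genes. Of 16 measured, 9 were higher by any amount on day 5 than on day 4 and 7 lower, with a median of 0.06, which is near the 55.7% and the median of 0.06 of all genes. Aars2 was 2.20-fold lower. On day 7 over day 5 the mitochondrial synthetases had 12 of 16 higher by any amount (median 0.13) while the cytosolic ones had 3 of 16 higher (median -0.20), against 35.4% of all genes (median -0.11). After median scaling the cytosolic count was 7 of 16 with a median of -0.026. The highest signal lay on day 5 for 13 of 16 cytosolic synthetases and on day 7 for 10 of 16 mitochondrial ones. These counts were 9 and 11 after median scaling.

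**Figure D2:**
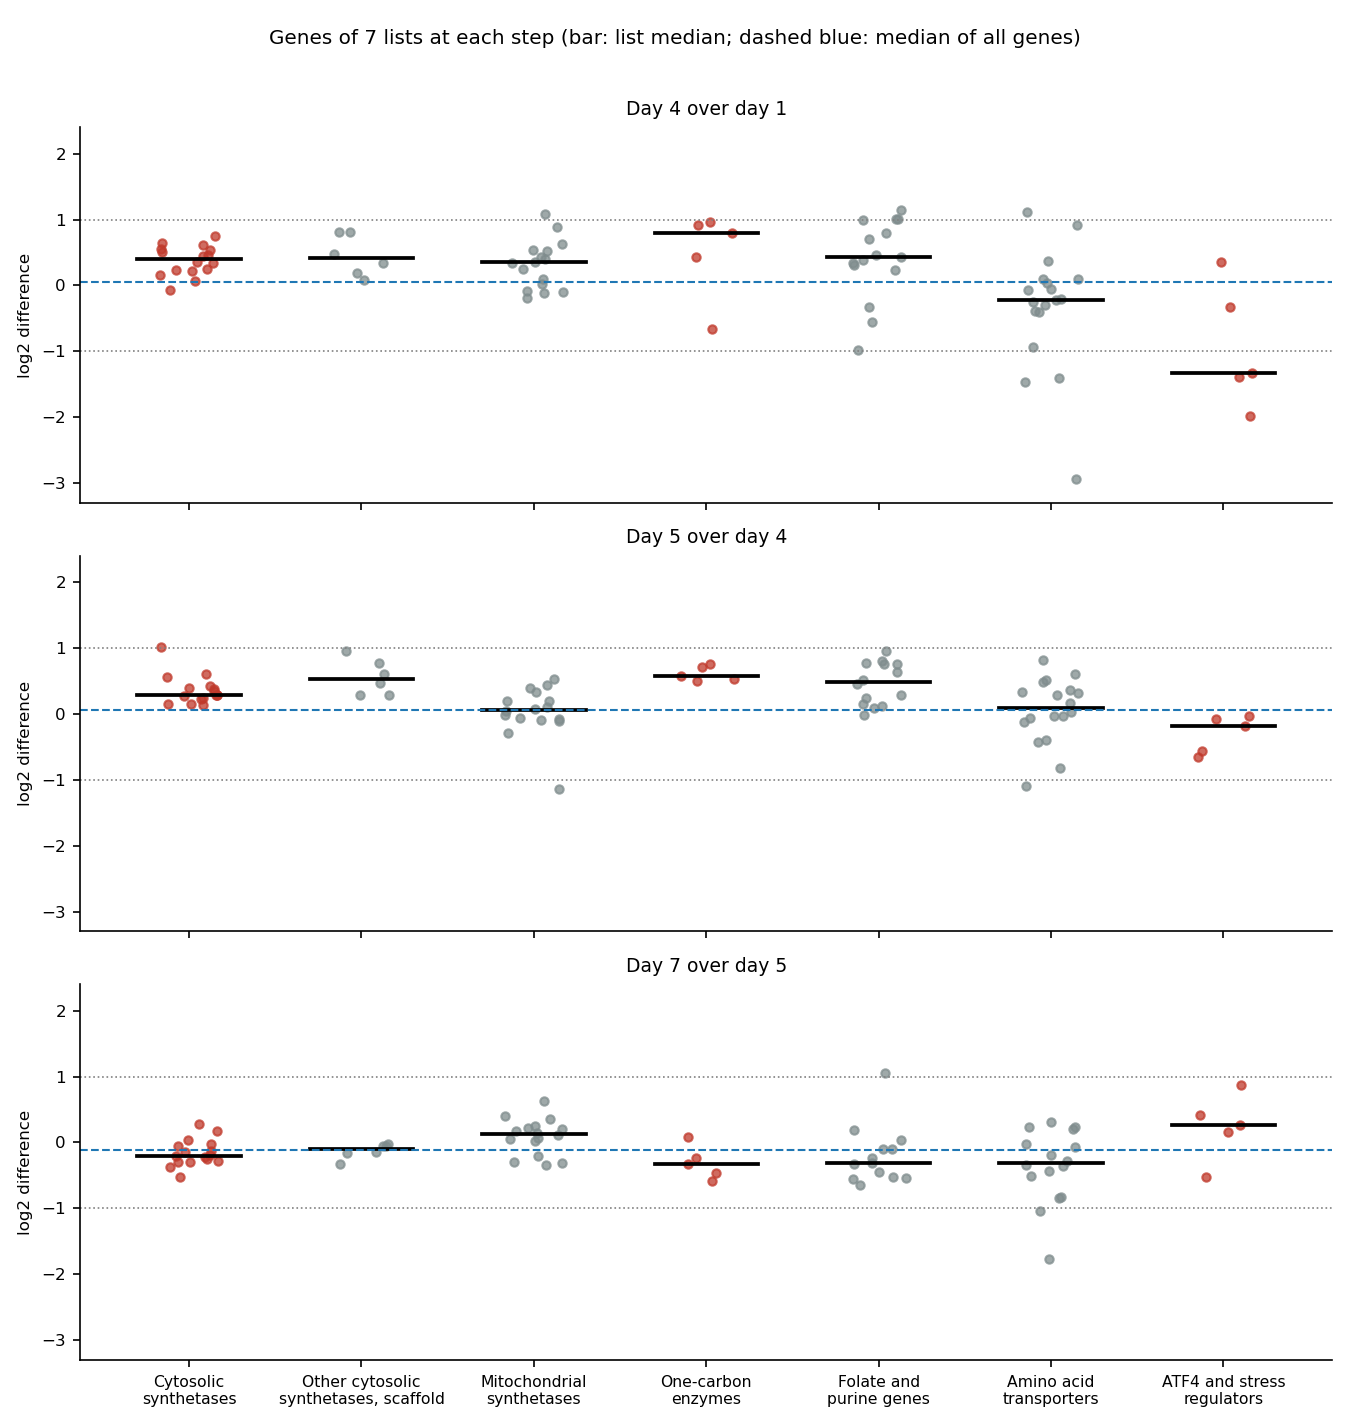
log2 difference of each gene above the floor on at least 1 of the 2 days, in 7 lists and at 3 steps, with the members in red, other genes in grey, the list median as a bar, the median of all genes as a dashed blue line and dotted lines at 2-fold. On day 5 over day 4 all 16 cytosolic synthetases and all 5 one-carbon enzymes lie above 0 by their brightest probe sets. The 5 stress regulators lie below 0, Atf4 (-0.03) and Chac1 (-0.07) by less than the control probe set SD of 0.10. A second Atf4 probe set, not drawn, gave 0.34.

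Amino acid transporters bring in what the synthetases use, and several are ATF4 targets. Of 18 measured, 12 were lower by any amount on day 4 than on day 1, against 46% of all genes, with a median of -0.22 against 0.06. At 2-fold, 3 were lower, against 8.65% of all genes, and 1 higher, against 10%. Slc43a1, a carrier of large neutral amino acids, was 7.64-fold lower, Slc7a5, the main leucine carrier, 2.77-fold and the glycine carrier gene Slc6a9 2.64-fold. Slc1a4, of the serine and alanine carrier, was at least 2.17-fold higher and is named here after its value was seen, as the only one of the 18 past 2-fold upward. Slc7a5 had signals of 906, 327, 575 and 550 on days 1, 4, 5 and 7, a dip on day 4 like that of Asns and Mthfd2. The cystine carrier gene Slc7a11 had 244, 187, 232 and 68.4, and was 3.39-fold lower on day 7 than on day 5.

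Of 17 listed genes around ATF4 and the kinases that raise it, 15 were measured and 13 were above the floor. On day 4 over day 1, 8 of the 13 were lower by any amount, against 46% of all genes, and 2 by at least 2-fold, against 8.65%. Ppp1r15a, the gene of the phosphatase subunit that ends the stress response, was 11.1-fold lower, at 473 on day 4 against 5261 on day 1. Eif2ak1, of the haem-sensing kinase that is abundant in red cell precursors, was 2.64-fold lower. For day 5 over day 4, 10 of the 13 were lower by any amount, against 44.3% of all genes, and Atf3, a stress-induced transcription factor gene, was 2.32-fold lower. Cebpb, a partner of ATF4, had a log2 difference of -0.02 at that step.

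Counted over all members, day 4 over day 1 compares cells kept for 3 days in vitamin D3 with fresh marrow. Of 37 members above the floor on at least 1 of these days, 4 were at least 2-fold higher (Bcat1, Gpt2, Psat1 and Glul), against 10% of all genes, and 3 were at least 2-fold lower (Trib3, Chac1 and Ddit3), against 8.65%. Both shares are near those of all genes. By any amount, 28 were higher, against 54% of all genes, and 9 lower, against 46%, with a median log2 difference of 0.36 against 0.06 for all genes. At 1.5-fold, 11 were higher, against 20.2% of all genes, and 5 lower, against 17.1%. The difference of Glul past 2-fold rests on 1 of its 2 probe sets, as does that of Ddit3, and Chac1 has 1 probe set only.

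The change between days 4 and 5 spans the addition of M-CSF and RANKL. Hars, 1 member of 39, was higher by 2-fold or more, against 2.02% of all genes. That call was lost with 16 added, with quantile normalization, with median scaling and with the mean over probe sets, each of which left 0 members. None was at least 2-fold lower, against 4.04%. By any amount 32 were higher, against 55.7% of all genes, and 7 lower, against 44.3%, with a median of 0.29 against 0.06. By their brightest probe sets the 7 were the 5 stress regulators, Glul and Phgdh. Other probe sets of Ddit3, Trib3 and Sesn2 were lower too. Those of Atf4 and Glul were higher, with log2 differences of 0.34 and 0.20. The other Phgdh probe sets had 0.12, 0.34 and -0.06. At 1.5-fold, 4 were higher, against 9.7% of all genes, and 1 was lower, against 10.4%.

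Between days 5 and 7 both cytokines were present throughout. None of 39 members was at least 2-fold higher, against 0.853% of all genes, and 2 were at least 2-fold lower (Bcat1 and Phgdh), against 5.84%. By any amount 11 were higher, against 35.4% of all genes, and 28 lower, against 64.6%, with a median of -0.20 against -0.11 for all genes. At 1.5-fold, 1 was higher, against 3.48% of all genes, and 3 were lower, against 14.2%. Scaling moves this step. Quantile normalization put the median of all genes at 0.03 and median scaling put it at 0.06. The members' median less that of all genes was -0.08 for the signals as deposited, -0.15 with quantile normalization and -0.08 with median scaling. Over all genes 12.7% of those past 2-fold were higher as deposited, 31.6% with quantile normalization and 27.2% with median scaling. Under either scaling 1 member, Chac1, was past 2-fold upward and 1 downward.

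Day 7 over day 4, which spans both cytokine intervals, had 0 of 37 members at least 2-fold higher, against 3.12% of all genes, and 3 at least 2-fold lower (Bcat1, Phgdh and Sesn2), against 9.12%. With quantile normalization 2 members were past 2-fold upward, Chac1 and Bcat2, and with median scaling 1 was, Mthfd2. Bcat1 was 6.39-fold lower and Phgdh 2.44-fold. By any amount 28 were higher, against 42.9% of all genes, and 9 lower, against 57.1%. At 1.5-fold, 5 were higher, against 9.7%, and 4 lower, against 20.3%. Relative to the median of all genes the members' median was 0.29 as deposited, 0.17 with quantile normalization and 0.30 with median scaling. Of those past 2-fold over all genes, 25.5% were higher as deposited, 43.7% with quantile normalization and 39.9% with median scaling. This comparison shares its arrays with both of the steps before it.

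Day 7 over day 1 sets the end of the culture against fresh marrow. Of 37 members, 7 were at least 2-fold higher, against 12.7% of all genes, and 3 were at least 2-fold lower (Trib3, Phgdh and Ddit3), against 16.2%. The 7 were Gpt2, Psat1, Sars, Mthfd1, Shmt2, Psph and Iars. By any amount 30 were higher, against 50.3% of all genes, and 7 lower, against 49.7%, with a median of 0.46 against 0.01 for all genes. At 1.5-fold, 15 were higher, against 24.3%, and 5 lower, against 25.9%. Relative to the median of all genes the members' median was 0.46 as deposited, 0.34 with quantile normalization and 0.47 with median scaling. Quantile normalization changed the share of higher among all genes past 2-fold to 56.2%, against 43.9% as deposited.

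**Figure D3:**
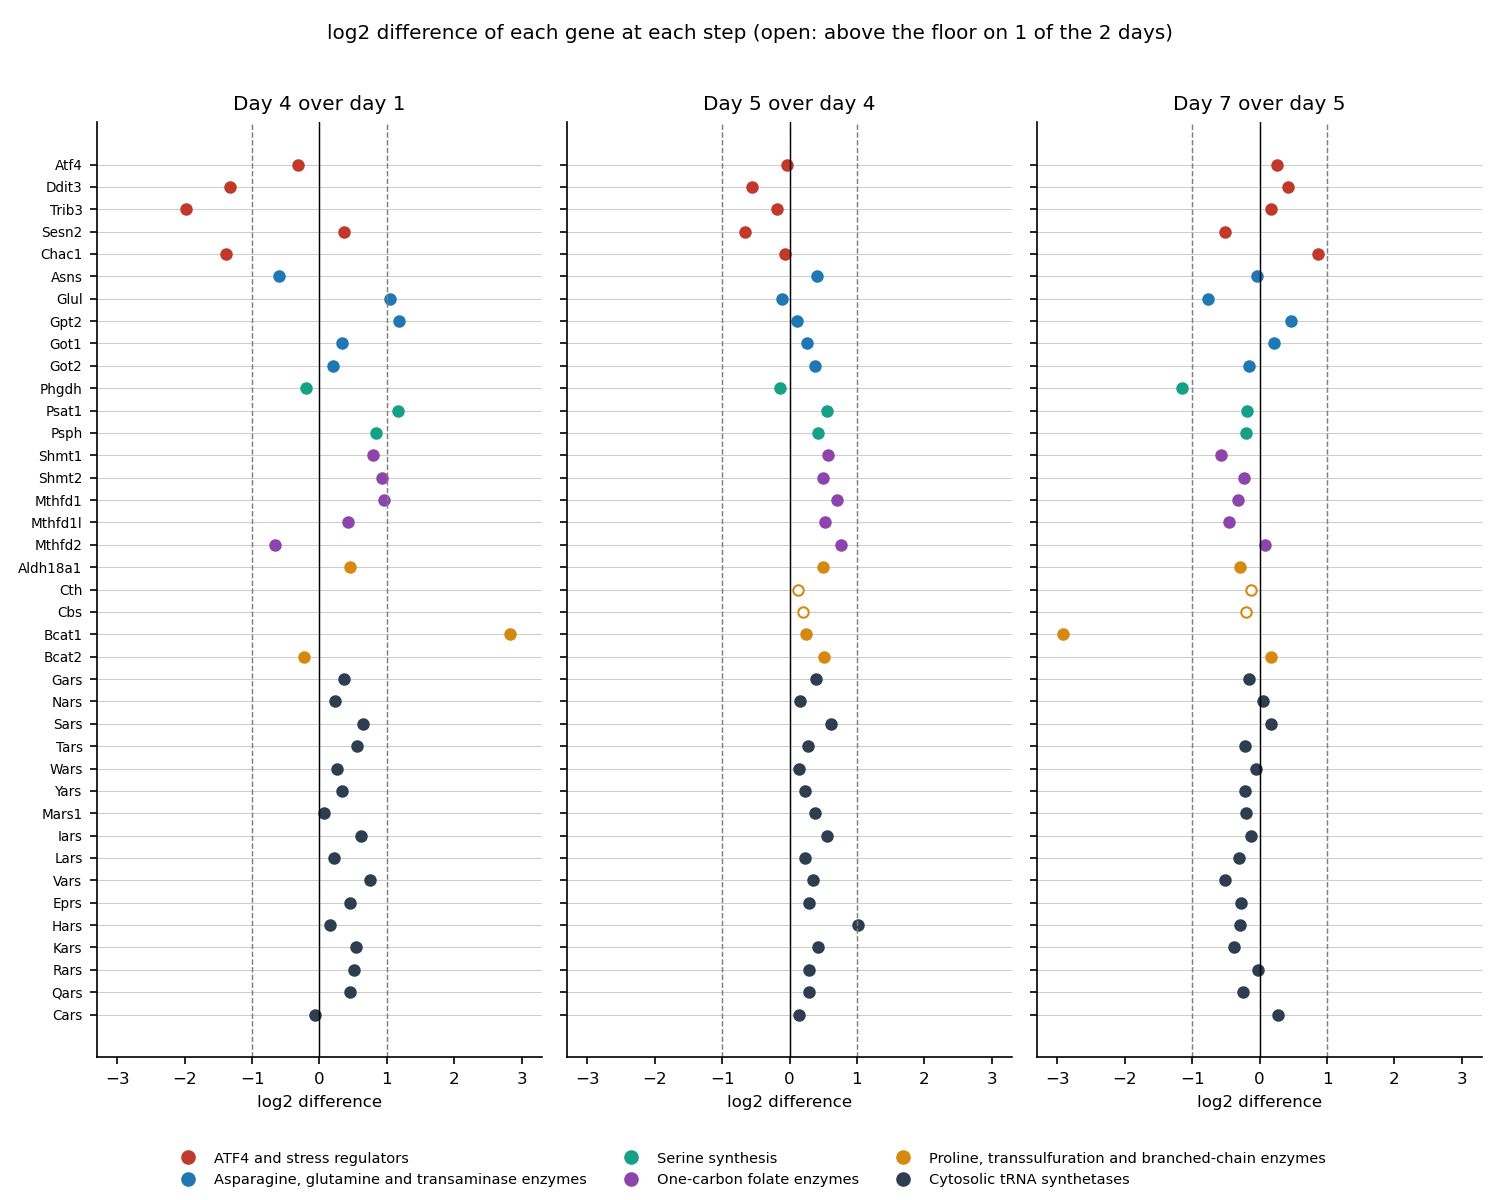
log2 difference of each of the 39 genes by its brightest probe set at 3 steps of the culture, coloured by role, with dashed lines at 2-fold and open circles for genes above the floor on 1 of the 2 days. Bcat1 lies farthest out in the panel of day 4 over day 1 (2.83) and in that of day 7 over day 5 (-2.92), and most tRNA synthetases lie right of 0 at the first steps and left of 0 at the last.

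Several probe sets of a gene give a check within the arrays. Of the 39 genes, 25 had more than 1 probe set. For other probe sets above the floor on both days, the direction was that of the brightest one for 26 of 36 between days 1 and 4, 29 of 37 between days 4 and 5 and 30 of 36 between days 5 and 7. For members past 2-fold with such a probe set, 6 of 6, 1 of 1 and 3 of 3 had the same direction, and 3, 0 and 1 of these reached 2-fold as well. For day 7 over day 1 the direction was shared by 24 of 34 other probe sets in all, and by 11 of 13 for members past 2-fold, of which 8 reached 2-fold. The 2 that differed in direction were 1 of Phgdh and 1 of Shmt2.

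**Figure D4:**
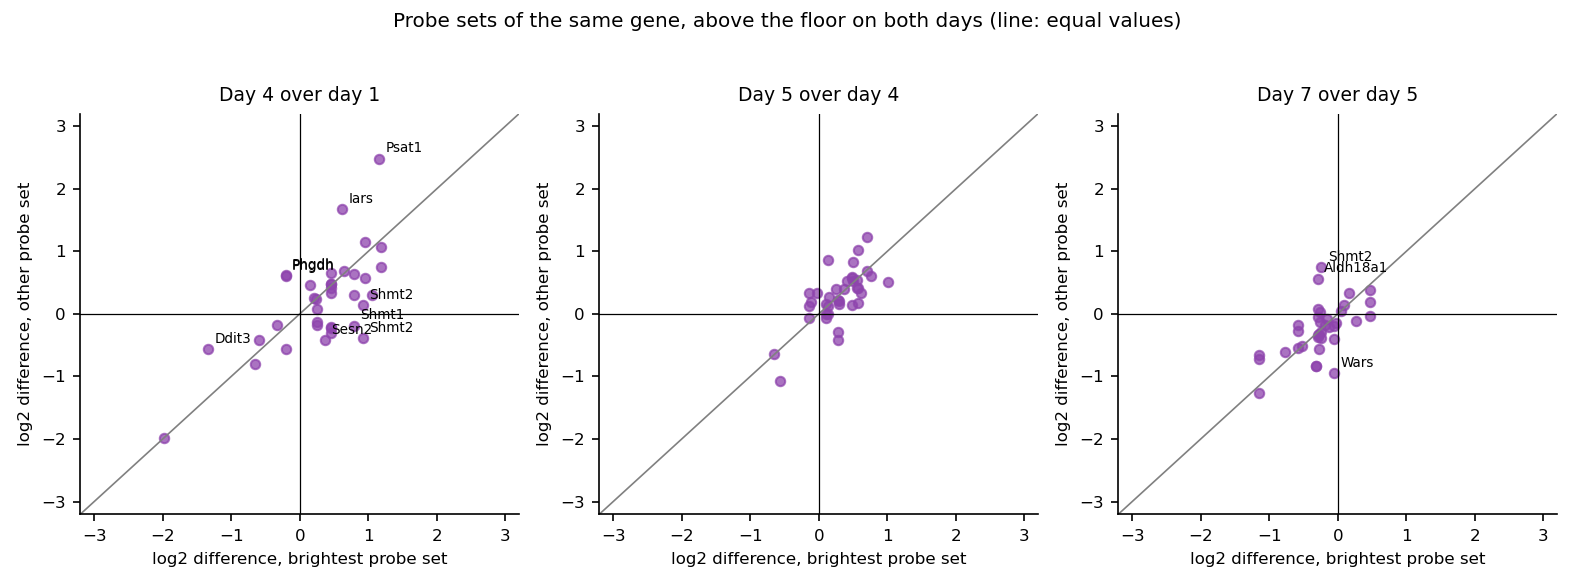
log2 difference by another probe set of a member (vertical axis) against that by its brightest probe set (horizontal axis) at 3 steps, each point a probe set above the floor on both days, with names where the values differ by over 0.75. Psat1 lies at 2.48 against 1.16 on day 4 over day 1, and points whose values differ in sign are probe sets that disagree in direction.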

How the data were processed

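The authors deposited 1 linear intensity per probe set and array. GCOS version 1.4 and MAS5 are named for making these values, per the submitters' processing notes, and no source used here gives a scaling target. Per the labels' protocols, biotinylated cRNA was made from 250.0 ng of total RNA. Of 45101 probe sets, 64 controls were left out, and 34945 had 1 gene symbol in the platform annotation, 932 several and 9160 none.

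Signals under 32.4, the median of all values, were raised to that floor before log2 differences were computed. The probe set brightest on average (mean of log2 signals) stood for its gene, and a gene was used in a comparison when it was above the floor on at least 1 of its 2 arrays. A gene above the floor on 1 of them has a bound. The 2-fold threshold is one of size. Days were grouped by the labels. The members and lists were chosen with earlier results of these data known. All members found are described, and of each other list the 3 genes with the largest difference could be named, plus Slc7a11, Slc7a5, Slc3a2, Cebpb, Atf3, Hspa5, Aars and Tyms, and 1 gene not reported here. Beyond this rule, erythroid and osteoclast markers below the floor, and Slc1a4, were named after their values were seen.

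Alternatives were floors of 8.43 and 68.9 (percentiles 25 and 60), 16 added with no floor, quantile normalization, median scaling, the mean over probe sets, leaving out probe sets of the types _s_at and _x_at, and a 1.5-fold threshold. The counting was tested on simulated data. Python 3.11.15, numpy 2.4.6, pandas 2.3.3 and matplotlib 3.10.9 were used. The number of arrays limits the precision.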

Additional observations from a re-analysis of the deposited data

How the results depend on the processing

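With 1 array a day, no value has a replicate check, and differences between mice or cultures were not measured. No paired analysis was possible because each day had 1 array. Signals near the floor limit what can be said of Cth, Cbs, Bcat1, Bcat2 and Trib3. Of the 80 counts of members recomputed under the 8 alternatives 60 stayed within 1.5 times the reported count, and of the 35 medians over members 32 moved by less than the SD of the control probe sets.

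With a threshold of 1.5-fold, 11 members were higher and 5 lower between day 4 and day 1. Between day 5 and day 4 the counts were 4 higher and 1 lower, and between day 7 and day 1 they were 15 higher and 5 lower. The same threshold gave 1 member higher for day 7 against day 5, and 5 higher for day 7 against day 4. On day 5 over day 4, 0 members were 2-fold higher with 16 added, after quantile normalization, after median scaling and with the mean over probe sets, since Hars lay at the threshold (log2 difference 1.01). On day 7 over day 5, 1 member was 2-fold higher after quantile normalization and 1 after median scaling. At that step 1 was 2-fold lower under quantile normalization, median scaling, the mean over probe sets, and without _s_at and _x_at probe sets, a setting that leaves out Phgdh. The median over members on day 7 over day 5 was -0.12 after quantile normalization and -0.021 after median scaling. On day 7 over day 4, 2 members were 2-fold higher after quantile normalization and 1 after median scaling, and the median was 0.36 after median scaling. The cause was not tested where none is named. No difference past 2-fold changed its sign for a single member under any of these alternatives. Most of them rescale the same signals or move the floor, which can hardly turn a difference of that size. On day 7 over day 1, single other probe sets of Phgdh and Shmt2 did differ in sign, at 0.23 and -0.15.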

Other observations

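Among other amino acid enzymes the arginase genes had the largest differences on day 7 over day 5. Arg2, the mitochondrial arginase gene, had signals of 1593, 506, 123 and 30.3 on days 1, 4, 5 and 7, below the floor on day 7. Arg1, its cytosolic counterpart, had 284, 264, 693 and 52.6, and was 2.62-fold higher on day 5 than on day 4 and 13.2-fold lower on day 7 than on day 5. Prodh, the gene of the enzyme that starts proline breakdown, was 2.25-fold lower on day 7 than on day 5, at 46.4 on day 7 against 104 on day 5. Of 21 listed enzymes, 18 were measured, and on day 7 over day 5, among 16 above the floor, 3 were at least 2-fold lower, against 5.84% of all genes, and none higher, against 0.853%. Their median was -0.09 against -0.11 for all genes, and it turned to 0.10 with quantile normalization and 0.09 with median scaling. Neutrophil markers were lower at that step too, 8 of 10 by at least 2-fold, with a summed signal of 5296 on day 7 against 36983 on day 5, and their part was not tested.

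Of 14 genes of the unfolded protein response of the endoplasmic reticulum, 11 were higher by any amount on day 5 than on day 4, against 55.7% of all genes, with a median of 0.36 against 0.06, and none reached 2-fold. With quantile normalization 10 were higher and the median was 0.23. The largest difference was that of Sdf2l1, a chaperone gene of the endoplasmic reticulum, at 0.92 on the log2 scale. On day 7 over day 1, Manf, a secreted protein gene of the same response, was 2.50-fold higher, at 5328 on day 7 against 2134 on day 1. Hspa5, the gene of the main chaperone, had signals of 6997, 7883, 10131 and 10486 on the 4 days, with day 7 highest.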
